A study of Drosophila melanogaster with 3 samples.

Results

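The nuclear genes for mitochondrial ribosomal proteins were examined for binding of CG16815, an uncharacterised Drosophila protein, in whole embryos. The set comprised every protein-coding gene of the dm6 chromosome arms whose symbol begins with mRpL (large subunit, 47 genes) or mRpS (small subunit, 26 genes), which gave 73 of 13968 protein-coding genes. Chromatin immunoprecipitation followed by sequencing (ChIP-seq) had been carried out with an antibody against green fluorescent protein (GFP) on a transgenic line that stably expresses CG16815 with GFP at its C terminus. Embryos of both sexes were pooled and were 0 to 10 hours old. The 3 biological replicates formed 1 group, all with the same transgene, and there was no second condition. Which promoter drives the tagged copy is not given. Whole embryos mix cell types, so strong binding in a few cells and weak binding in many cannot be told apart. Expression was not measured, so the labelled stage and tissue could not be checked against marker genes.

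The mitochondrial ribosome translates the few messenger RNAs that the mitochondrial genome encodes, which specify core subunits of the respiratory chain and of ATP synthase. Its RNA is made inside the organelle, but its proteins are encoded in the nucleus, translated in the cytosol and imported. Some of these proteins have counterparts in the bacterial ribosome and share their numbers, and others were added during the evolution of mitochondria. A supply of ribosomes to mitochondria therefore requires the expression of many nuclear genes scattered over the chromosomes.

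The sequences below, from the RefSeq dm6 genome assembly, show the kinds of mitochondrial ribosomal protein promoter described in the results. The first pair are the 101 bp around the summits (the point of highest signal of a called region) at mRpS10 (chr3R:15229480-15229580, plus strand) and mRpS23 (chr2L:13835410-13835510, minus strand), which carried the strongest sites of the set, and the capital marks the summit base. The next pair span the whole interval from the transcription start site (TSS) of the divergent neighbour, at the left end, to that of the mitochondrial ribosomal protein gene, at the right end. They are the interval between betaggt-I and mRpL24 (chr2L:4945361-4945579, minus strand), with the summit at base 73, and the interval between Mon1 and mRpS2 (chr2L:4850419-4850641, minus strand), with the summit at base 61. The last pair are the narrowest divergent intervals among genes of the set with no called region in any list, with 25 bp added at each end. Intervals as narrow at mRpL18 and mRpL23 had a passing site. They are Naa15-16 to mRpS14 (chrX:19480213-19480284, minus strand) and CG2021 to mRpL46 (chr3L:1777386-1777464, plus strand). All are written 5′ to 3′ along the strand of the mitochondrial ribosomal protein gene, and in the intervals capitals mark the E-box CAGCTG where one was found.
mRpS10: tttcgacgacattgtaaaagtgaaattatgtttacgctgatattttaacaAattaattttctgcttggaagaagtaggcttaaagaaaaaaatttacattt
mRpS23: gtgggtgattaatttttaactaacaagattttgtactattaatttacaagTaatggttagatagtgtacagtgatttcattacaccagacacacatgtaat
betaggt-I to mRpL24: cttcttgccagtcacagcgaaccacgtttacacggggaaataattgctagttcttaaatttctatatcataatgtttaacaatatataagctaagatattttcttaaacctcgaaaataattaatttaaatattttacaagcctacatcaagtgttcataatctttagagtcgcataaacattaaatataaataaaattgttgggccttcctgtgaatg
Mon1 to mRpS2: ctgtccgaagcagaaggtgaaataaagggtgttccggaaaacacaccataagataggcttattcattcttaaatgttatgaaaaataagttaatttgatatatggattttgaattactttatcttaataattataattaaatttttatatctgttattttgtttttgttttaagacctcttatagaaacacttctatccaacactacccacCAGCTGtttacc
Naa15-16 to mRpS14: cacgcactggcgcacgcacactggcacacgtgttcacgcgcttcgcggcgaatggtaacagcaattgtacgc
CG2021 to mRpL46: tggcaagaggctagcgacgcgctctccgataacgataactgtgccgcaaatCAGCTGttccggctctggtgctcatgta

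The deposited final list held 3922 regions, called passing here, and these were exactly the 3922 strongest of the 18764 regions called on the pooled replicates. Replicate lists held 30000 regions (replicate 1), 21989 (replicate 2) and 27358 (replicate 3). To compare lists of equal length, the 3922 strongest regions of each replicate were used, referred to as its N best. Signal is the value the authors' deposited lists give for the strength of a region, and only ranks from the same list were drawn from it. No control library was analysed here, and the depth of the libraries is unknown.

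CG16815 sites lay at the promoters of a minority of the mitochondrial ribosomal protein genes, in both subunits. Each of those promoters was divergent when a neighbour's TSS up to 1000 bp upstream was allowed. At 22 of the 73 genes, a summit of the final list fell no more than 500 bp from a TSS (30.1%, 95% exact Clopper-Pearson interval 19.9 to 42.0%), against 15.9% of all protein-coding genes (2220 of 13968). The intervals cover counting error over genes only. Where a gene had more than 1 passing summit in reach, the one of highest signal was taken as its site. This applied to mRpL37 alone in the set, which had 2. No site so chosen served 2 members of the set, so the 22 genes had 22 distinct sites. At 13 of the 22 sites the TSS nearest the summit belonged to the neighbouring gene. The gene's own TSS was nearest at the other 9 (40.9%, interval 20.7 to 63.6%). The corresponding share was 56.3% of other bound protein-coding genes with a divergent neighbour, and 71.3% of all other bound ones. Assigning each summit to its nearest coding gene alone left 9 mitochondrial ribosomal protein genes bound (12.3%, against 11.6% of all protein-coding genes counted in that way). The share was thus above the background when a site was counted for every promoter within reach, and close to it when the site was counted for the nearest gene.

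Of the 51 genes without a passing summit, 11 had a region of the pooled list that did not pass, and these included mRpL3, mRpL13, mRpL27, mRpL44 and mRpS17. A pooled region of either kind was present at 33 of 73 genes (45.2%), against 32.1% of all protein-coding genes. The remaining 40 genes had no pooled region. Of these, 27 had no region in any list, among them mRpL1, mRpL2, mRpL10, mRpL14 and mRpS9, and 13 had a region in at least 1 replicate list. Genes of both subunits stood at each end of this range.

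A divergent neighbour was defined as a protein-coding gene on the opposite strand, transcribed away, with a TSS from 1000 bp upstream to 100 bp downstream of the TSS of the gene in question. Of the mitochondrial ribosomal protein genes, 58 of 73 (79.5%) had one, against 36.3% of all protein-coding genes. All 22 bound genes were among these 58, a share of 37.9% (interval 25.5 to 51.6%), where 28.8% of all protein-coding genes with a divergent neighbour were bound. None of the 15 genes without a divergent neighbour was bound (0 of 15, which allows up to 21.8% by the exact interval), where the share was 8.56% of all such genes. In the N best of each replicate taken alone, the bound genes numbered 0 of these 15. The shares of all protein-coding genes without a divergent neighbour were 8.13%, 8.63% and 7.58% in replicates 1, 2 and 3. These are the same 15 genes and the libraries behind the final list. These counts rest on the limit of 1000 bp. At TSS distances of 500 to 1000 bp, 3 of 5 mitochondrial ribosomal protein genes were bound, against 19.1% of all protein-coding genes. Examples of genes on their own promoters without any called region were mRpL10, mRpL14, mRpL19, mRpS33, mRpS34 and mRpS35. Within the class of divergent genes, the interval for the mitochondrial ribosomal protein genes included the background share of that class.

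**Figure D1:**
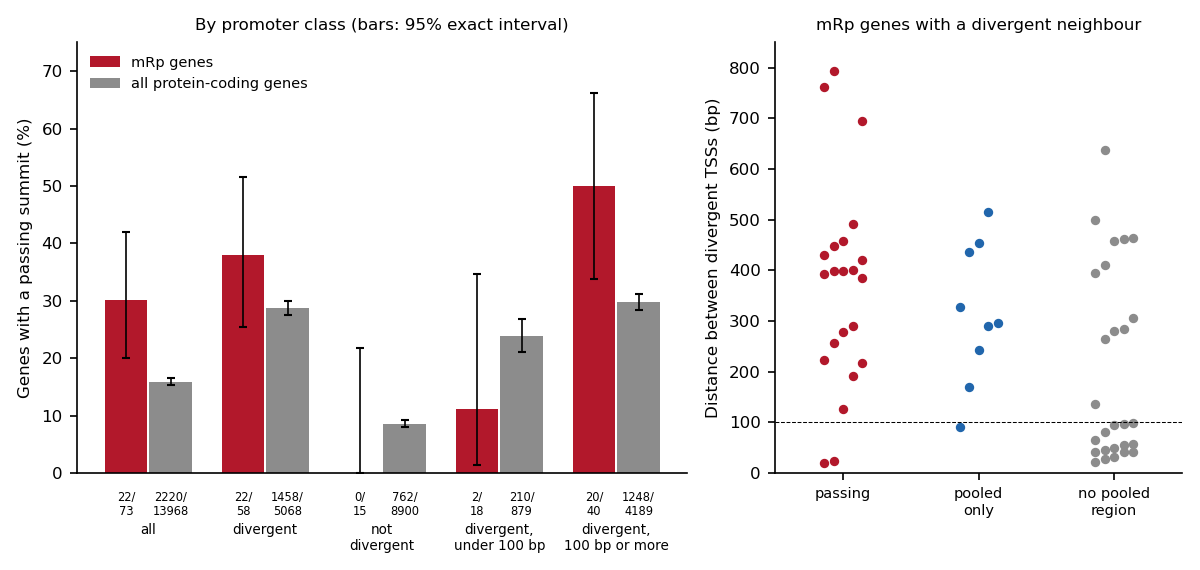
Left, the percentage of genes with a passing summit within 500 bp of a TSS, by promoter class, for mitochondrial ribosomal protein genes (red) and all protein-coding genes (grey), with the counts under each bar and lines for the 95% exact interval; 22 of 58 divergent members and 0 of 15 others were bound. Right, the distance in bp between the divergent TSSs of each of the 58 members, by the status of its promoter, with a dashed line at 100 bp; 2 of the 22 bound genes lie below it.

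Bound genes of the set tended to have divergent TSSs farther apart than unbound ones. The median distance was 395.5 bp at the 22 bound genes (quartiles 230.75 and 443.5 bp) and 206 bp at the 36 divergent genes that were not bound (quartiles 56.5 and 398.75 bp), and the ranges overlapped from 21 to 637 bp. Among all protein-coding genes with a divergent neighbour the medians were the same, at 295.5 bp for bound and unbound genes. Intervals under 100 bp were common in the set: they made up 24.7% of its genes, against 6.29% of all protein-coding genes. Only 2 of these 18 narrow promoters were bound (11.1%, interval 1.38 to 34.7%), mRpL23 and mRpL18, and at both the summit lay outside the interval. Of all protein-coding genes with divergent TSSs under 100 bp apart, 23.9% were bound. That class, and so the 6.29%, took the distance without its sign and includes overlapping pairs, with distances down to -99 bp. The set had no overlapping pair (lowest distance 20 bp at bound and 21 bp at unbound genes), so the classes are not fully alike. Where the TSSs stood 100 bp or more apart, 20 of 40 mitochondrial ribosomal protein genes were bound (interval 33.8 to 66.2%), against 29.8% of all protein-coding genes of that spacing. The limit of 100 bp was chosen after the values were seen, and the difference between these classes was not tested.

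Most sites at the bound genes lay between the diverging transcription units. The summit was upstream of the member's own TSS at 21 of 22 genes, with a median offset of -158 bp (negative values are upstream, range -464 to 60 bp). Other bound protein-coding genes had a median offset of -157 bp. In the N best of the replicates the median offset at mitochondrial ribosomal protein genes was -170 bp in replicate 1, -166 bp in replicate 2 and -168 bp in replicate 3, so the position was alike in the 3 libraries. At 20 of the 22 genes the summit was also within 500 bp of the neighbour's TSS (90.9%, interval 70.8 to 98.9%), and such sites are called shared. Of the other bound protein-coding genes with a divergent neighbour, 87.6% had a shared site. The exceptions were mRpL41 and mRpL4, whose neighbours CG8079 and CG4440 start 762 and 793 bp away. At 19 of 22 genes the summit lay upstream of both TSSs, with mRpL23, mRpL11 and mRpL18 as the exceptions, a share of 86.4% against 83.4% of the other bound divergent genes.

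**Figure D2:**
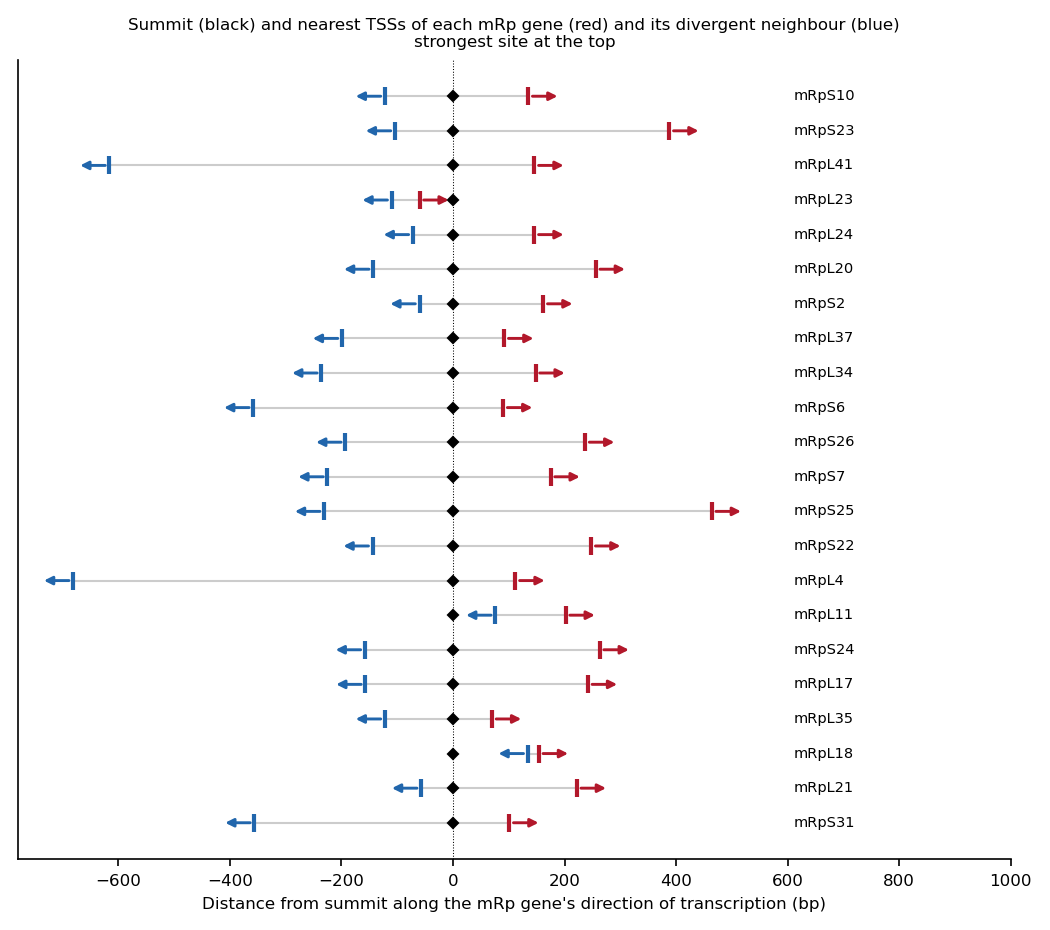
Map of the 22 bound promoters aligned on the summit (black diamond), with distance in bp along the direction of transcription of the mitochondrial ribosomal protein gene, whose TSS and direction are in red, and the TSS and direction of the divergent neighbour in blue. From the strongest site at the top to the weakest, the summit falls between the diverging arrows at 19 of 22 promoters.

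Small-subunit proteins with bacterial counterparts included the strongest site of the set. At mRpS10, a protein of the head of the small subunit in bacteria, the site had a signal of 2257.5 and ranked 10 in the final list, and it ranked 15, 11 and 7 in replicates 1, 2 and 3. Its summit lay 135 bp upstream of mRpS10 (offset -135 bp) and at -122 bp from Art3, which encodes an arginine methyltransferase. The site was thus among the strongest of the genome in all 3 libraries and stood almost midway between the divergent starts. The site of mRpS2 ranked 677 (831, 626 and 858 in replicates 1 to 3), at -162 bp, and at -60 bp from Mon1, an endosomal trafficking gene. The site of mRpS6 ranked 998 (1085, 807 and 2657 in replicates 1 to 3), at -90 bp, opposite Cip4, which encodes a membrane-curving protein. mRpS7, whose bacterial counterpart organises the head of the small subunit, shared its site with the cell cycle kinase gene Cdk1. That site ranked 1916 (2176, 1960 and 1881 in the replicates) and lay at -175 bp from mRpS7 and -225 bp from Cdk1.

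Small-subunit proteins that bear higher numbers made up the next group, with 6 bound genes. mRpS23 had the second strongest site of the set, with a signal of 1732.7 and rank 21 (27, 20 and 34 in replicates 1 to 3). Its summit lay at -388 bp, and at -104 bp from CenG1A, an Arf GTPase-activating protein gene, which is therefore the nearer gene. mRpS26 ranked 1852 (2016, 2063 and 1891 in the replicates), with the summit at -237 bp from it and -193 bp from CG13698. The ranks of these sites changed little from library to library. mRpS22 ranked 2102 (1754, 2242 and 2702 in the replicates) and was paired with CG5003. The site at mRpS25 was the farthest from its gene, at -464 bp, and ranked 2009 (4125, 1743 and 2261 in the replicates), so that in replicate 1 it fell outside the N best. Its neighbour nmdyn-D6 encodes a nucleoside diphosphate kinase. Lower in the list, mRpS24 ranked 3185 (2949, 3942 and 2590 in the replicates), in the interval it shares with Apc2, a regulator of Wnt signalling, and was outside the N best in replicate 2 alone. mRpS31 had the weakest passing site of the set, at rank 3860 with a signal of 126.6, and ranked 9649, 3147 and 5882 in the replicates. Only replicate 2 held the mRpS31 site among its N best.

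Large-subunit proteins with bacterial counterparts included 10 bound genes. The groups differ in their total number of genes, so these counts do not rank them by share bound. mRpL23, whose bacterial counterpart lies at the exit of the peptide tunnel, had a signal of 1440.5 and rank 44 (49, 40 and 84 in replicates 1 to 3). It was the only bound gene of the set whose summit lay downstream of its TSS, at 60 bp from the nearest of its 3 start sites. The start of CG9004 stood 24 bp from another of these start sites, on the other strand. mRpL24, another protein of the tunnel exit in bacteria, ranked 304 (329, 254 and 624 in the replicates), at -146 bp, and at -72 bp from betaggt-I, a subunit of a protein prenyltransferase. These sites were in the N best of every replicate. The site of mRpL20, an early assembly protein in bacteria, ranked 494, with 405 and 357 in replicates 1 and 2 but 2787 in replicate 3. Its neighbour Icmt encodes a methyltransferase of prenylated proteins. mRpL34 ranked 854 (785 and 924 in replicates 2 and 3), in the interval it shares with Dg (dystroglycan), and had no summit within 150 bp in the whole list of replicate 1.

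The other 6 bound genes of this group had weaker sites. mRpL11, a protein of the factor-binding stalk base in bacteria, ranked 2477 (1853, 2745 and 3206 in the replicates), and its summit lay at -202 bp and 76 bp inside HtrA2, a mitochondrial protease gene. mRpL35 ranked 3629 (3830, 2980 and 8872 in the replicates) opposite Mitofilin, which organises the cristae of the inner membrane. mRpL18, which in bacteria binds 5S ribosomal RNA, ranked 3652 (4471, 3534 and 4883 in the replicates), with the summit 134 bp inside Taz, the gene for the cardiolipin-remodelling enzyme tafazzin. The site of mRpL11 was in the N best of every replicate, that of mRpL35 fell outside in replicate 3, and that of mRpL18 fell outside in replicates 1 and 3. mRpL4, a protein of the tunnel wall in bacteria, ranked 2263 (2105 and 3931 in replicates 2 and 3) and was not found in replicate 1. mRpL17 ranked 3611 (6057, 2863 and 7043 in the replicates) opposite Tudor-SN, and was in the N best of replicate 2 only. mRpL21 ranked 3685 (2720 and 9509 in replicates 2 and 3) opposite rept, the gene for a chromatin-remodelling ATPase, and was absent from the list of replicate 1.

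The large-subunit proteins specific to mitochondria included 2 bound genes. mRpL41 had the third strongest site of the set, with a signal of 1544.9 and rank 37 (34, 36 and 69 in replicates 1 to 3), at -146 bp. mRpL37 ranked 836 (856, 794 and 1067 in the replicates), with the stronger of its 2 passing summits at -92 bp. Both were in the N best of all 3 replicates.

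**Figure D3:**
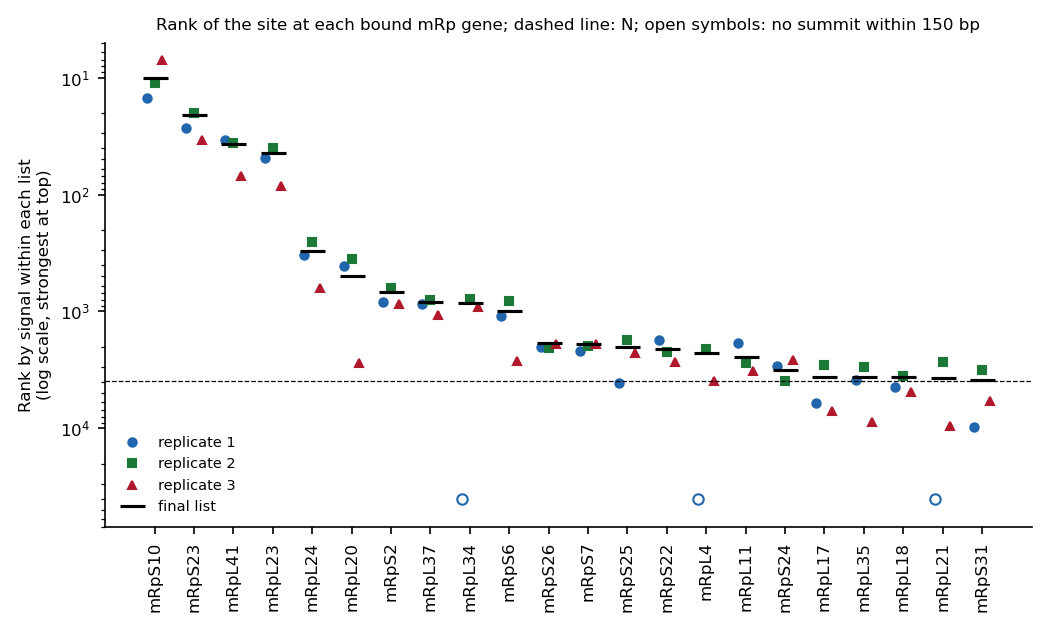
Rank by signal within each list (log scale, strongest at the top) of the site at each of the 22 bound mitochondrial ribosomal protein genes, in the final list (black bars) and in replicates 1, 2 and 3 (coloured symbols), with a dashed line at rank 3922 and open symbols where a replicate list had no summit within 150 bp. The 4 strongest sites rank below 100 in all 3 replicates, and 3 sites are missing from replicate 1.

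By subunit, 12 of 47 mRpL genes (25.5%, interval 13.9 to 40.3%) and 10 of 26 mRpS genes (38.5%, interval 20.2 to 59.4%) were bound. Genes with bacterial numbers (up to 36 in the large and 21 in the small subunit) were bound in 14 of 42 cases (33.3%, interval 19.6 to 49.5%), and those with higher numbers in 8 of 31 (25.8%, interval 11.9 to 44.6%). The intervals overlap widely in both splits. Ranks of the 22 sites ran from 10 to 3860 with a median of 1884, where the sites of other bound protein-coding genes had a median rank of 1492. The set thus held 4 sites of rank under 100 and 6 of rank 3185 or beyond, without a common level of signal. By chromosome arm the bound share ran from 1 of 11 on X (9.09%, interval 0.230 to 41.3%) to 5 of 12 on 2L (41.7%, interval 15.2 to 72.3%), and these intervals overlap. The proteins of the small mitochondrial subunit encoded by tko and bonsai, which do not carry the family symbol, had no called region in any list.

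The share of bound genes varied between the replicates by less than its distance from the background. Among the N best, 17 of the 73 genes had a summit in replicate 1 (23.3%, against 14.3% of all protein-coding genes), 22 in replicate 2 (30.1%, against 16.5%) and 17 in replicate 3 (23.3%, against 14.3%). The mean was 25.6% ± 3.95 (SD, n = 3), against 15.0% ± 1.24 (SD, n = 3) over all protein-coding genes. For genes with a divergent neighbour alone the corresponding means were 32.2% ± 4.98 and 27.2% ± 2.68 (SD, n = 3), a difference about the size of the spread between replicates, though the set was higher in each of the 3. Of the 22 sites, 13 had a summit within 150 bp among the N best of all 3 replicates, 4 in 2 of them and 5 in 1. Replicate 2 held 21 of the sites among its N best, replicate 3 held 16 and replicate 1 held 15. Across the sites found in both lists, Spearman's rho of the ranks was 0.914 between replicates 1 and 2 (19 sites), 0.825 between 1 and 3 (19 sites) and 0.844 between 2 and 3 (22 sites). These are descriptions across sites called on the pool of the same libraries. Leaving out 1 replicate and asking for a summit in the N best of both others gave 15 bound genes without replicate 1, and 14 without replicate 2 or without replicate 3 (19.2 to 20.5%, against 10.5 to 12.9% of all protein-coding genes). Every one of these genes was also bound in the final list and had a divergent neighbour.

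The threshold of the final list fell between mRpS31 and mRpS21, whose signals were similar. Just inside it were mRpL18 (signal 133.3), mRpL21 (131.9) and mRpS31 (126.6). The strongest outside were mRpS21 (118.8, pooled rank 4143), mRpL53 (108.6, rank 4555), mRpS18B (98.1, rank 5040), mRpL27 (88.7, rank 5602) and mRpS17 (87.8, rank 5661). These summits, too, lay upstream of the gene's own TSS, from -204 bp at mRpS17 to -41 bp at mRpL53. At mRpL27 the summit lay at -161 bp, where the divergent TSS was 91 bp away. mRpS21, next to the chaperone gene Droj2, was in the N best of replicate 2 (rank 2797) but ranked 18574 in replicate 3 and was missing from replicate 1. mRpL53, next to AGO1, was in the N best of replicate 3 alone (rank 2912), and ranked 3943 in replicate 2. Among the unbound genes 4 had an N-best summit in at least 1 replicate (mRpL16, mRpL53, mRpS18B and mRpS21), and none had one in all 3.

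Short sequence motifs were looked for on either strand, in windows reaching 50 bp to each side of a summit and from 250 bp before to 50 bp after each TSS. The 15 motifs were the DRE (TATCGATA), the core promoter elements Motif 1 (GGTCACAC) and Motif 7 (CANCNCTA), the NRF-1/ewg core (GCGCATGC), the BEAF-32 core (CGATA, which lies within the DRE), the E-box (CAGCTG), the Myc E-box (CACGTG) and the GAGA repeat (GAGAG). The others were the TATA box (TATAAA), the initiator (TCAGT), the GATA motif (GATAA), a homeodomain core (TAATTA), the ETS core (CCGGAA), the Pho/YY1 core (GCCAT) and the CCAAT box (CCAAT). Within 50 bp of the summit, none of the 22 sites held a DRE, Motif 1, Motif 7, NRF-1/ewg core, E-box or Myc E-box, and at the 1691 other passing promoter sites these were found in 0.177% (NRF-1/ewg) to 5.74% (Motif 7) of windows. The TATA box was found in 5 of the 22 windows, against 25.3% of the other sites. The BEAF-32 core was found in 1 (against 17.0%) and the initiator in 1 (against 16.3%). With windows of 100 bp to each side, the E-box was found at 5 of 22 sites (22.7%), against 8.81% of the other sites, Motif 7 at 2 and the Myc E-box at 1, while the DRE, Motif 1 and the NRF-1/ewg core were still at 0. The wider windows held the GATA motif at 10 of 22 sites (45.5%, against 42.0% of the other sites) and the TATA box at 8 (36.4%, against 41.6%). They held the BEAF-32 core at 5 (22.7%, against 33.9%) and the initiator at 3 (13.6%, against 30.9%). The windows were rich in A and T, with a median GC content of 28.7% (range 18.8 to 59.4%) against 30.7% at the other promoter sites, as the mRpS10 and mRpS23 windows printed above show.

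Around the start sites, by contrast, the E-box CAGCTG was frequent in the mitochondrial ribosomal protein genes, whether bound or not. It occurred in the promoter window of 41 of 73 genes (56.2%, interval 44.1 to 67.8%), against 22.1% of all other protein-coding genes and 27.4% of those with a divergent neighbour. Among the bound genes 12 of 22 had it (54.5%) and among the unbound 29 of 51 (56.9%). Its median position in the set was -2.5 bp from the TSS (49 E-boxes, quartiles -42.5 and 17.5 bp), where that in other protein-coding genes was -56.5 bp. In the 12 bound genes with an E-box, the centre of the one nearest the summit lay from 67.5 bp (mRpL35) to 472.5 bp (mRpS25) from the summit. The interval between Mon1 and mRpS2 printed above has the summit at base 61 and an E-box starting at base 212, next to the start of mRpS2. Another E-box at this locus lies nearer the summit, at 80.5 bp, beyond the Mon1 end of the printed interval. In the narrow interval between CG2021 and mRpL46 an E-box stood at the start site with no called region nearby. The DRE occurred in 16 of 73 genes (21.9%) against 10.1% of all other protein-coding genes, and in 5 of the 22 bound genes. The E-box and the DRE were singled out after the counts of all 15 motifs were seen.

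**Figure D4:**
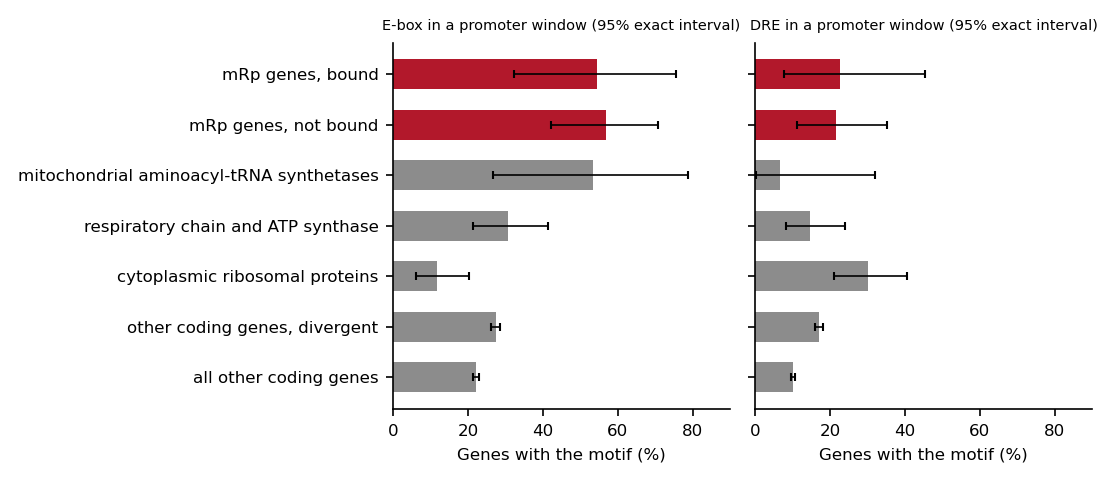
Percentage of genes with an E-box (CAGCTG, left) or a DRE (right) from 250 bp before to 50 bp after a TSS, for bound and unbound mitochondrial ribosomal protein genes (red) and for other sets of protein-coding genes (grey), with lines for the 95% exact interval. The E-box was present in 54.5% of bound and 56.9% of unbound members, and in 22.1% of all other protein-coding genes.

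Other genes needed to build and feed mitochondria were compared by the same count. Among the nuclear genes of the respiratory chain and ATP synthase, whose partners the mitochondrial ribosome makes, 16 of 88 were bound (18.2%, interval 10.8 to 27.8%), with the complex I subunit genes ND-MWFE (signal 697.1) and ND-ASHI (560.6) and the ATP synthase gene blw (509.0) as the strongest. There, too, the bound genes were mostly divergent: 14 of 45 with a divergent neighbour (31.1%) and 2 of 43 without (4.65%). That list includes genes with an L added to a subunit symbol, such as COX4L, ND-20L and ATPsynbetaL, which were not counted apart. Among genes that work with the mitochondrial ribosome, the count was 1 of 9 translation factors (mEFTu1, signal 132.1; 11.1%, interval 0.281 to 48.2%). It was 1 of 15 (6.67%, interval 0.169 to 31.9%) both for mitochondrial aminoacyl-tRNA synthetases (ArgRS-m, signal 172.5) and for import components (Tom7, signal 241.2). These intervals all include the 15.9% of all protein-coding genes. Of the genes for maintenance and expression of mitochondrial DNA 4 of 14 were bound (28.6%, interval 8.39 to 58.1%), a share close to that of the mitochondrial ribosomal set. It stayed at 28.6% by nearest gene only. Bound genes were 2 of 9 with a divergent neighbour (22.2%) and 2 of 5 without (40%). The strongest was SLIRP2, whose human relative binds mitochondrial RNA, at a signal of 1257.7 and rank 57. Of the cytoplasmic ribosomal protein genes 49 of 93 were bound (52.7%, interval 42.1 to 63.1%), and 17 of their 37 genes without a divergent neighbour were bound (45.9%), where the mitochondrial set had 0 of 15. Their count varied between the N best of the replicates, at 28, 42 and 63 genes in replicates 1, 2 and 3, and was 25.8% of the list without replicate 2 and 26.9% without replicate 3. The counts of the mitochondrial set in the same lists were 17, 22 and 17. Differences between these lists were not tested.

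**Figure D5:**
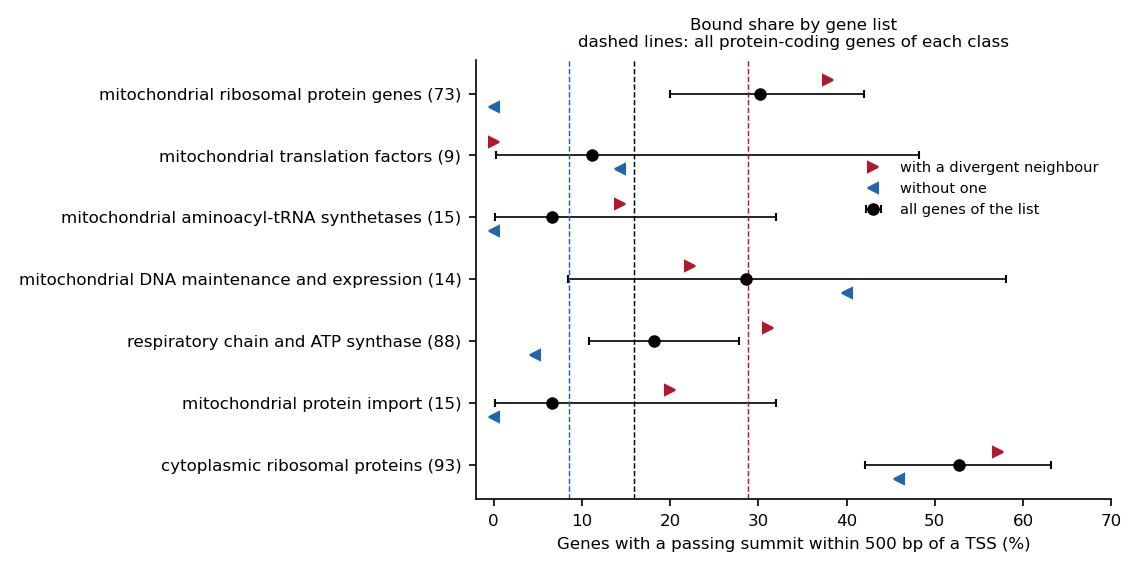
Percentage of genes with a passing summit within 500 bp of a TSS in each gene list, with the number of genes in parentheses and the 95% exact interval (black), and the same for genes with (red) and without (blue) a divergent neighbour; dashed lines give all protein-coding genes of each class, at 15.9% (black), 28.8% (red) and 8.56% (blue). The mitochondrial set had 37.9% of its divergent promoters bound and none of the others, and cytoplasmic ribosomal protein genes had 57.1% and 45.9%.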

How the data were processed

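The analysis used the lists of called regions that the authors deposited on dm6 for 3 replicates, their pool and a final list thresholded by irreproducible discovery rate, per the README text deposited with them. Each relaxed list derives from alignments and 1 further file whose nature is not given. For the aligner, peak caller, versions and threshold nothing is given in the sources used. Signal values are those the authors deposited, with no stated normalisation, and so served for ranks within a list. The deposited −log10 q-value served only for 1 alternative (q under 0.05). Chromatin was sonicated to a size range of 200 to 800, per the labels. The dm3 lists were not used here.

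Summits (region start plus summit offset, as deposited) were joined to every TSS of the Ensembl release 115 annotation (BDGP 6.54) in Python 3.11.15 with numpy 2.4.6 and scipy 1.17.1, and figures were drawn with matplotlib 3.10.9. The joins were tested on simulated data. Replicate summits within 150 bp counted as 1 site. With 1 group no test was run. Named genes were all bound members, the 5 unbound members of highest pooled signal, tko, bonsai, and up to 4 bound genes of each comparison list. A few others were named as examples after their values were seen. A neighbouring gene of the set is not reported here. Symbols unmatched in the annotation were 3 of 12 translation factors and 1 of 15 genes of mitochondrial DNA maintenance. The members, lists and motifs were chosen with earlier results of these data known.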

Additional observations from a re-analysis of the deposited data

How the results depend on the processing

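No paired analysis was possible because the labels give 1 group. All 22 bound genes and those of every alternative count of bound genes had a divergent neighbour by the limit of 1000 bp. With a limit of 500 bp for the neighbour, 19 of the 22 sites were shared. By that limit mRpL41, mRpL4 and mRpS25 had no divergent neighbour (762, 793 and 695 bp away). Bound genes numbered 18 with a window of 250 bp (24.7%, all protein-coding genes 12.1%), 22 with 1000 bp (30.1%, all 18.3%) and 27 with pooled regions of q under 0.05 (37.0%, all 20.7%). They numbered 12 when only final regions above the median signal counted (16.4%, all 9.74%; 11 shared sites, 12.8% of mRpL genes, 19.0% of genes with bacterial numbers) and 9 by nearest gene only (12.3%, all 11.6%). By promoter, they numbered 0 without a divergent neighbour and 2 under 100 bp of spacing, strata added after the data were seen. For all protein-coding genes these shares were 8.56% and 23.9%, the latter including overlapping pairs. Leaving out 1 replicate gave 14 to 15 bound genes, 13 to 14 shared sites and 4 to 5 with the member's TSS nearest. The replicate mean was 21% with 250 bp and 15.1% with the 2000 best regions. The share of all protein-coding genes was not counted under these settings, so neither mean can be set against a background. Above the median signal, beside 9.74% of all protein-coding genes, the bound share was 29.0% of cytoplasmic ribosomal protein genes, 9.09% of respiratory chain genes and 0 of translation factors and aminoacyl-tRNA synthetases. With q under 0.05, beside 20.7% of all, it was 66.7% of cytoplasmic ribosomal protein genes, and leaving out 1 replicate gave 25.8 to 44.1%. Without any 1 replicate it was 0 for translation factors. Split by neighbour, respiratory chain genes had 31.1% (divergent) and 4.65% (not), translation factors 0 (divergent), and aminoacyl-tRNA synthetases and import components 0 (not). Import components were at 0 with 250 bp and by nearest gene. The causes were not tested. Unknown depth and the number of genes, 73, limit the precision, and no control library was analysed here.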

Other observations

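The E-box CAGCTG was counted in other genes of mitochondrial function, against 22.1% of all protein-coding genes outside the mitochondrial ribosomal set. It occurred in the promoter window of 8 of 15 mitochondrial aminoacyl-tRNA synthetase genes (53.3%, interval 26.6 to 78.7%), in 5 of 9 translation factor genes (55.6%, interval 21.2 to 86.3%) and in both tko and bonsai. Over these whole lists, with or without an E-box, only ArgRS-m and mEFTu1 had a passing site. The interval for translation factors includes the background. The counts were lower in the respiratory chain and ATP synthase genes (27 of 88, 30.7%) and in the cytoplasmic ribosomal protein genes (11 of 93, 11.8%). The DRE had another order, at 30.1% of cytoplasmic ribosomal protein genes, 55.6% of translation factor genes and 6.67% of the aminoacyl-tRNA synthetase genes. The GAGA repeat was found in 18.75% of the promoter windows of mitochondrial ribosomal protein genes (80 start sites), against 33.2% of all others. These motifs were singled out after all 15 were counted, and the differences were not tested.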
